A study of Mus musculus with 8 samples.

Results

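The 34 genes described here are interferon-stimulated genes and genes of class I antigen presentation, chosen by symbol from a fixed list, and all 34 were found among the 47729 genes of the count and TPM tables. RNA was sequenced from whole kidneys of mice on postnatal day 8, with strand-specific libraries made from total RNA. In the 4 knockout libraries Kctd1 carried floxed alleles (KCTD1fl/fl) that were deleted with Six2Cre, a Cre recombinase driven from Six2, a gene of nephron progenitors. The deletion therefore reaches the nephron epithelium, while blood cells, vessels, stroma and collecting duct lie outside that lineage. The 4 wildtype libraries came from control littermates, and the sources used here do not name their floxed or Cre alleles. No label ties a library to its own animal, and the p-values therefore cover only how these 8 libraries vary, which may be technical.

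Interferons are secreted proteins that cells release when cytosolic or endosomal sensors meet foreign nucleic acid. Type I and type III interferons act through JAK kinases on a complex that holds STAT2 and IRF9 and binds the interferon-stimulated response element in promoters, whereas interferon gamma acts mainly through the gamma-activated site. The induced genes include antiviral effectors, the sensors and factors of the pathway itself, guanylate-binding proteins, and the immunoproteasome, peptide transporter and class I molecules that display peptides on the cell surface. Many of them keep a low level in healthy tissue without infection, and kidney tubule, vessel and resident immune cells can all express them.

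The response element was looked for in the promoters of the genes, because it is the sequence through which most of them are known to respond. RefSeq windows of build GRCm38.p6, from 250 bases before to 50 after a gene's start, were matched for 28 of the 34 genes. The letters searched were GAAA and GAAA with any 2 bases between them, on both strands. They stood in a window of 14 of these 28 genes. Counted per window, 14 of the 33 windows of these genes held them (42.4%), against 3.44% of all 32851 windows. The letters TTCNNNGAA of the gamma-activated site, which read the same on both strands, stood in 7 of the 33 windows (21.2%), against 8.30% of all windows. A match is a stretch of letters and was not tested for binding. The 4 windows below belong to the genes that hold the element and had the smallest p in the comparison of knockout with wildtype. They are Ifih1 (chr2:62646206-62646505, minus strand), Ifit3 (chr19:34583279-34583578, plus strand), Ddx58 (chr4:40239776-40240075, minus strand) and Bst2 (chr8:71537423-71537722, minus strand). Each is written 5′ to 3′ along its gene, with the matching letters in capitals.
Ifih1: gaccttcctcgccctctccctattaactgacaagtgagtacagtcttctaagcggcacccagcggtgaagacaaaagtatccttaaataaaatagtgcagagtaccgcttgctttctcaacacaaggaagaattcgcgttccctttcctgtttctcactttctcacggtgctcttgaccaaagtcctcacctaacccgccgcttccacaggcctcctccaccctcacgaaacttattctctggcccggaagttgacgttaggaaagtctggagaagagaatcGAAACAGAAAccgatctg
Ifit3: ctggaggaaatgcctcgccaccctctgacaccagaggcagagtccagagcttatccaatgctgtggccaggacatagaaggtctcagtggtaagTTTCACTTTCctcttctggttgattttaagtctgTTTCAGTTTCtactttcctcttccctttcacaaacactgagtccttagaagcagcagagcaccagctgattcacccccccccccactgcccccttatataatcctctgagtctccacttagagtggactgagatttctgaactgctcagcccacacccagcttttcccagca
Ddx58: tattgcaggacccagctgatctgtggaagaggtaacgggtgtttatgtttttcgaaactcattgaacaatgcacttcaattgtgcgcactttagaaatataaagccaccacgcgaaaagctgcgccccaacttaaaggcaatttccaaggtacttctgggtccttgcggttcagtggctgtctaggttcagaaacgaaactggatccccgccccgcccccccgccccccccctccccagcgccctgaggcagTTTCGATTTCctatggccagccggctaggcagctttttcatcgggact
Bst2: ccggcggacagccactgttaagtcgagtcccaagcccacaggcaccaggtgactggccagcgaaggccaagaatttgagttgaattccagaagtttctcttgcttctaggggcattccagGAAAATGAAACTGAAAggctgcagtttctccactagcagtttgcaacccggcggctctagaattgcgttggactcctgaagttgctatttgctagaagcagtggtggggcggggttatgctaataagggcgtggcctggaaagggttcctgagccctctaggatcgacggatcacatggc
With positions counted from 1 at the gene's start and negative before it, the Ifit3 matches began at -156 and -122 and the overlapping Bst2 matches at -130 and -124, all before the start. The single matches of Ifih1 and Ddx58 began at 33 and 3, after the start. Isg15 held 3 overlapping matches, which began at -78, -72 and -66.

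The libraries held 14457760 to 20741076 counts, of which 11936 to 19411 fell on the 34 genes. Kctd1 measured 24.3 ± 1.57 CPM, a count scaled to library size with TMM factors, in knockout kidneys, against 31.6 ± 1.77 CPM in wildtype kidneys (SD, n = 4 each), with no overlap (adjusted p = 0.279, Benjamini-Hochberg, from edgeR's quasi-likelihood test). The row of ribosomal RNA took 1.1% and 5.39% of the counts in knockout 1 and 2, against 0.361% to 0.743% in the other 6 libraries. Xist had 81994 counts in knockout 2 and 101295 counts in wildtype 3, and few in the rest. For the tissue label, the summed markers of proximal tubule, thick limb, podocyte and collecting duct each exceeded those of leukocytes in every library. Markers of immune cells were low, with 42.9 to 46.5 CPM in knockout and 42.0 to 47.4 CPM in wildtype summed over 6 general leukocyte genes.

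Levels of the 34 genes spanned a wide range. On the per-length TPM scale their median was 3.76, against 5.46 over all 18548 genes tested. B2m, the light chain of all class I molecules, led with 130 ± 30.2 TPM in knockout and 140 ± 6.77 TPM in wildtype (SD, n = 4 each). The class I heavy chain genes H2-D1 (70.7 ± 31.0 TPM in knockout and 71.8 ± 22.8 TPM in wildtype) and H2-K1 (42.7 ± 9.0 TPM in knockout and 53.1 ± 2.79 TPM in wildtype) came next, and the ranges of neighbours in this order overlapped over the knockout libraries but not over the wildtype libraries. Bst2, which encodes tetherin, and the sensor gene Ddx58 were the other genes above 10 TPM. Below 1 TPM stood Cxcl10, Ifit1, Mx2, Oas1a, Zbp1 and Mx1. Mx1, which encodes an antiviral GTPase that many laboratory strains lack in functional form, had 1 to 15 counts per library and was the 1 gene of the 34 that did not pass the filter on low counts.

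**Figure D1:**
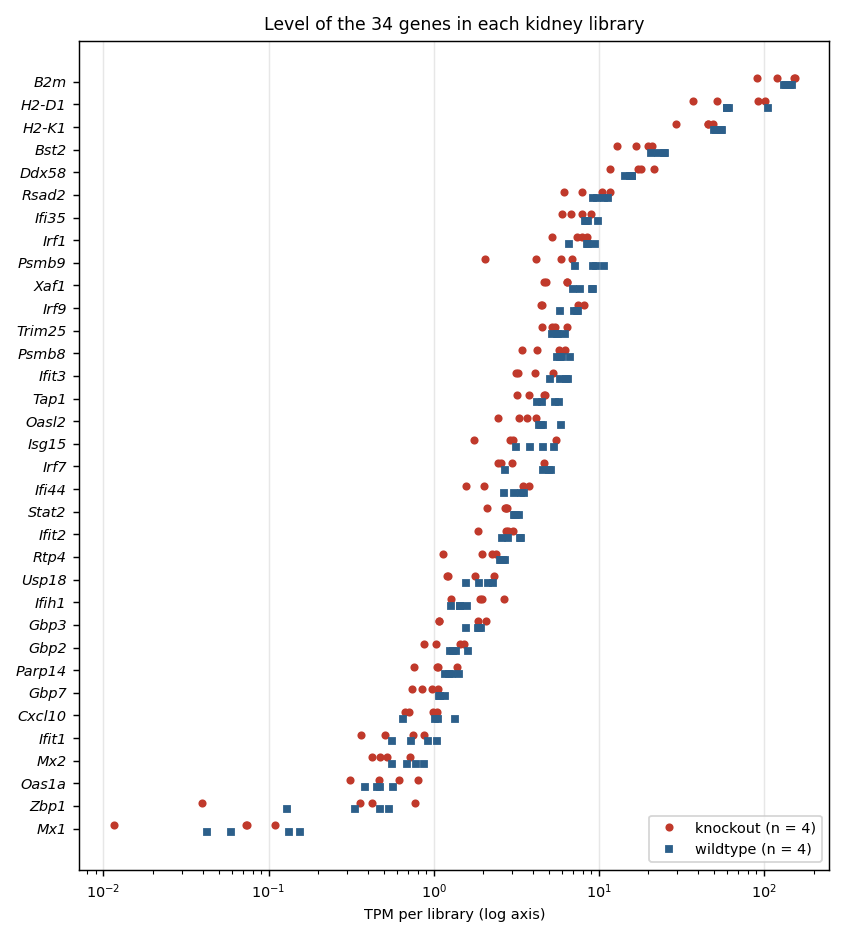
TPM of each of the 34 genes in the 4 knockout libraries (red circles) and the 4 wildtype libraries (blue squares), on a log axis, ordered by the mean over all 8 libraries. B2m, H2-D1 and H2-K1 lie highest and Mx1 lowest, and for most genes the groups overlap.

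The interferon genes themselves were almost without reads. Of 8 listed, 4 (Ifnb1, Ifna4, Ifng and Ifnl2) had 0 counts in all 8 libraries. The other 4 together had 4 counts in knockout and 5 counts in wildtype, so no difference in interferon transcripts was detectable at this depth.

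Between knockout and wildtype, 0 of the 33 tested genes passed an adjusted p of 0.05 (edgeR's quasi-likelihood test, Benjamini-Hochberg), where 0.0809% of the 18548 tested genes did, 0.0323% higher and 0.0485% lower. DESeq2 also called 0 of the 34, where it called 0.669% of 23019 genes. Their fold changes, none of them called, were mostly negative. Their median log2 fold change was -0.14, against 0.00 over all genes tested, and 26 of 33 were negative, against 49.7% of all genes. At an unadjusted p under 0.05, 6 of 33 were lower (18.2%, against 3.08% of all genes) and 2 were higher (6.06%, against 3.11%). The 6 lower genes became 3 when knockout 1 alone or wildtype 1 alone was left out, and also without the pair of libraries with Xist reads. They became 8 without knockout 3 and 7 with total count scaling. The 2 higher genes became 1 without knockout 1, wildtype 3 or wildtype 4. With limma on log2(TPM + 1) and on log2(TPM + 0.1), 0 were higher at that threshold, and 6 and 5 were lower. On these scales 6.13% and 6.04% of all genes passed it, in either direction. In 5 of 33 the knockout CPM values were all under the wildtype CPM values (15.2%, against 2.06% of all genes), and in 1 they were all over them (3.03%, against 1.97%). In whole kidney, fewer cells of a type and less RNA per cell cannot be told apart.

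The low values stood mostly in knockout 1 and 2, the libraries with the largest ribosomal RNA share. Of the 33 genes, 14 had their lowest value of the 8 libraries in knockout 1 and 10 in knockout 2, together 72.7%, against 31.5% of all genes tested. Centred on each gene's mean, the genes had median log2 values of -0.26, -0.16, 0.08 and 0.06 in knockout 1 to 4 and 0.05, 0.10, 0.09 and 0.05 in wildtype 1 to 4. Knockout 3 and 4 thus lay within the wildtype range and knockout 1 and 2 below it. Leaving out knockout 1 and 2 was a setting chosen after seeing the data. These are the libraries in which the genes stood lowest, so a rise of the median was built into the choice. Without them, the median log2 fold change was -0.03, and 18 genes were negative and 15 positive. At an unadjusted p under 0.05, 0 were lower (3.71% of all genes) and 3 were higher (3.02%). The adjusted threshold was passed by 0 of the 33 (0.0458% of 19632 genes). The part of the ribosomal RNA share in these values was not tested.

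**Figure D2:**
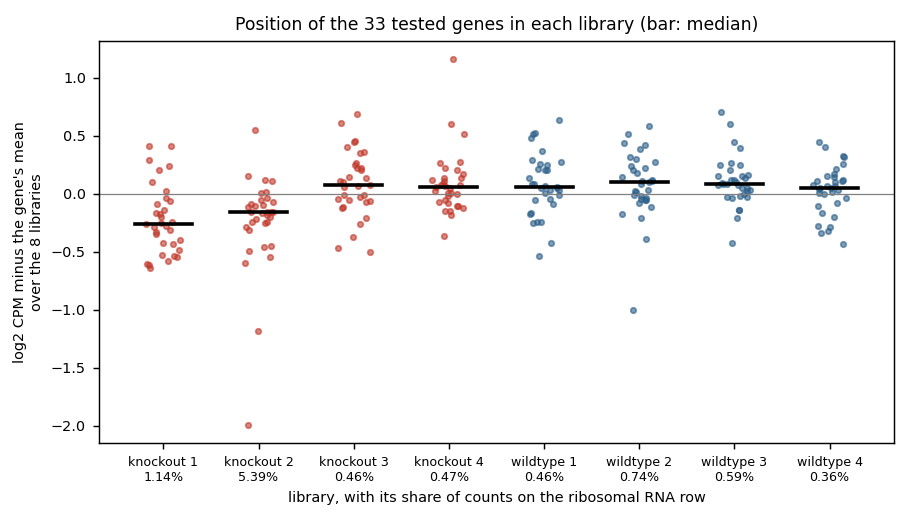
Each point is 1 of the 33 tested genes in 1 library, as its log2 CPM minus its mean over the 8 libraries, with knockout libraries in red and wildtype libraries in blue. Black bars are medians, which stand at -0.26 and -0.16 in knockout 1 and 2 and between 0.05 and 0.10 in the other 6 libraries. The percentage under each library is its share of counts on the ribosomal RNA row.

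The 3 sensors of viral nucleic acid had positive log2 fold changes, though that of Zbp1 was negative with limma-voom and on log2(TPM + 0.1). Ifih1, which encodes MDA5, the cytosolic sensor of long double-stranded RNA, had 14, 12.2, 14.6 and 18.5 CPM in knockout 1 to 4, against 10.2, 11.8, 9.04 and 9.57 CPM in wildtype 1 to 4. In CPM the groups did not overlap, and knockout 4 was highest. In TPM they did, as knockout 2 (1.27) was the lowest of all libraries, just below wildtype 3 (1.28). The log2 fold change was 0.55 ± 0.15 (SE), or 1.47-fold, the smallest p of the 33 genes, and it was not called (adjusted p = 0.422, Benjamini-Hochberg, from edgeR's quasi-likelihood test). Over the other settings tried, its adjusted p ran between 0.118 with DESeq2 and 0.753. Without knockout 1 and 2 the log2 fold change was 0.71, no smaller than with them. With all libraries and limma on log2(TPM + 1) it was 0.26, where the median of all genes was -0.11. Ifih1 lies on chromosome 2 from 62595798 to 62646255 (GRCm38).

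Ddx58, which encodes RIG-I, the related sensor of short RNA ends with a triphosphate, had 50.1, 35.9, 40.5 and 39.9 CPM in knockout, against 35.5, 36.4, 32.7 and 33.6 CPM in wildtype. Knockout 1 stood highest and knockout 2 fell inside the wildtype range in CPM. In TPM knockout 2 (11.7) was the lowest of all libraries, and wildtype 3 (14.5) came next. The log2 fold change was 0.27 ± 0.10 (adjusted p = 0.711, Benjamini-Hochberg, from edgeR's quasi-likelihood test). It was 0.11 with limma on log2(TPM + 1) and on log2(TPM + 0.1), where the medians of all genes were -0.11 and -0.14. Dhx58, which encodes LGP2, the regulatory relative of both sensors and not 1 of the 34, had a log2 fold change of -0.70 ± 0.35 (adjusted p = 0.837, Benjamini-Hochberg, from edgeR's quasi-likelihood test), with 1.88 ± 0.77 CPM in knockout kidneys, against 3.09 ± 1.19 CPM in wildtype kidneys (SD, n = 4 each). Zbp1, a sensor of left-handed nucleic acid that can start necroptosis, ranged over 0.111 to 1.89 CPM in knockout and 0.334 to 1.28 CPM in wildtype, too few counts for its level to be placed.

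The 4 factors that carry the signal had negative log2 fold changes, of which Irf1 and Irf9 changed sign when libraries were left out. Stat2, which encodes a subunit of the response complex, had 23.1, 23.6, 23.7 and 22.7 CPM in knockout, against 25.5, 26.3, 26.1 and 25.7 CPM in wildtype. The libraries did not overlap and the spread within each group was narrow, but the difference was small, at a log2 fold change of -0.15 ± 0.08 (adjusted p = 0.837, Benjamini-Hochberg, from edgeR's quasi-likelihood test). Without knockout 1 and 2 it was -0.16. Irf9, which binds DNA in the same complex, had 27.6 ± 6.56 CPM in knockout kidneys, against 28.8 ± 4.19 CPM in wildtype kidneys, and overlaps Rnf31 on the same strand in the annotation. Irf7, the amplifier of interferon production, had 5.08 ± 1.26 and 6.39 ± 1.5 CPM, and Irf1, the factor induced by interferon gamma, 25.4 ± 1.81 and 26.7 ± 3.51 CPM (SD, n = 4 each, knockout before wildtype).

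In the ISG15 system and among other regulators, 5 of 6 genes had negative log2 fold changes and 0 were called. ISG15 is a ubiquitin-like protein that is joined to others, USP18 removes it and also restrains the interferon receptor, and TRIM25 activates RIG-I. Rtp4, a negative regulator of the response, had 5.34, 4.11, 6.55 and 5.82 CPM in knockout, against 7.06, 7.02, 7.02 and 6.25 CPM in wildtype. Only knockout 3 reached into the wildtype range, and the log2 fold change was -0.33 ± 0.17 (adjusted p = 0.840, Benjamini-Hochberg, from edgeR's quasi-likelihood test). Isg15 had 3.57 ± 1.51 CPM in knockout kidneys, against 4.29 ± 1.1 CPM in wildtype kidneys, and Usp18 had 2.60 ± 0.71 and 2.88 ± 0.53 CPM. Parp14, a mono-ADP-ribosyltransferase gene, and Ifi35 had log2 fold changes of -0.15 ± 0.11 and -0.11 ± 0.11. Trim25 had 62.3 ± 4.49 CPM in knockout kidneys, against 59.4 ± 2.01 CPM in wildtype kidneys (log2 fold change 0.07 ± 0.07).

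Of the 6 genes lower at an unadjusted p under 0.05, 4 were antiviral effectors and 2 class I presentation genes. Of the 10 tested, 9 had negative log2 fold changes, and the median was -0.28. Summed over all 11, they made up 133 to 177 CPM in knockout and 177 to 182 CPM in wildtype. Ifit3, which holds together a complex of RNA-binding IFIT proteins, had 9.68, 13.3, 12.8 and 15.5 CPM in knockout, against 17.1, 15.8, 19.6 and 17.7 CPM in wildtype. In CPM the groups did not overlap, with knockout 1 lowest, but in TPM knockout 4 (5.30) stood above wildtype 2 (5.08). The log2 fold change was -0.45 ± 0.15 (adjusted p = 0.590, Benjamini-Hochberg, from edgeR's quasi-likelihood test). Without knockout 1 and 2 it was -0.31. Ifit3 has the near copy Ifit3b, whose log2 fold change was -0.16 ± 0.18, and reads shared between them were not examined.

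Xaf1, which encodes an antagonist of an apoptosis inhibitor, had 5.66, 7.73, 7.93 and 7.47 CPM in knockout, against 10.7, 11.2, 8.25 and 8.56 CPM in wildtype. The nearest libraries of the groups almost touched, and the log2 fold change was -0.43 ± 0.16 (adjusted p = 0.706, Benjamini-Hochberg, from edgeR's quasi-likelihood test). Oasl2, a relative of the oligoadenylate synthetases, had 9.49, 9.34, 10.7 and 11.5 CPM in knockout, against 16.3, 12.9, 12.2 and 12 CPM in wildtype. Here too the groups did not overlap, wildtype 1 was highest, and the log2 fold change was -0.38 ± 0.14 (adjusted p = 0.666, Benjamini-Hochberg, from edgeR's quasi-likelihood test). Bst2, whose product tethers budding virus to the cell surface, had 17.8, 18.1, 22.6 and 20.1 CPM in knockout, against 25.7, 26.5, 23.4 and 19.95 CPM in wildtype. Wildtype 4 fell among the knockout libraries, and the log2 fold change was -0.28 ± 0.12 (adjusted p = 0.775, Benjamini-Hochberg, from edgeR's quasi-likelihood test).

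The other effectors overlapped between the groups. Rsad2, which encodes viperin, had 75.8, 77.3 and 81.4 CPM in knockout 2 to 4 and 67.6 to 75.8 CPM in wildtype, but 44.8 CPM in knockout 1. Its log2 fold change was -0.04 ± 0.16, and 0.12 without knockout 1. Ifit1, Ifit2, Ifi44 and Mx2 had log2 fold changes of -0.27, -0.09, -0.11 and -0.30. Oas1a, which makes the second messenger that activates RNase L, was the 1 effector with a positive value, 0.34 ± 0.29, at 1.93 ± 0.63 CPM in knockout kidneys, against 1.52 ± 0.27 CPM in wildtype kidneys. It has close relatives in the genome, among which shared reads were not examined.

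**Figure D3:**
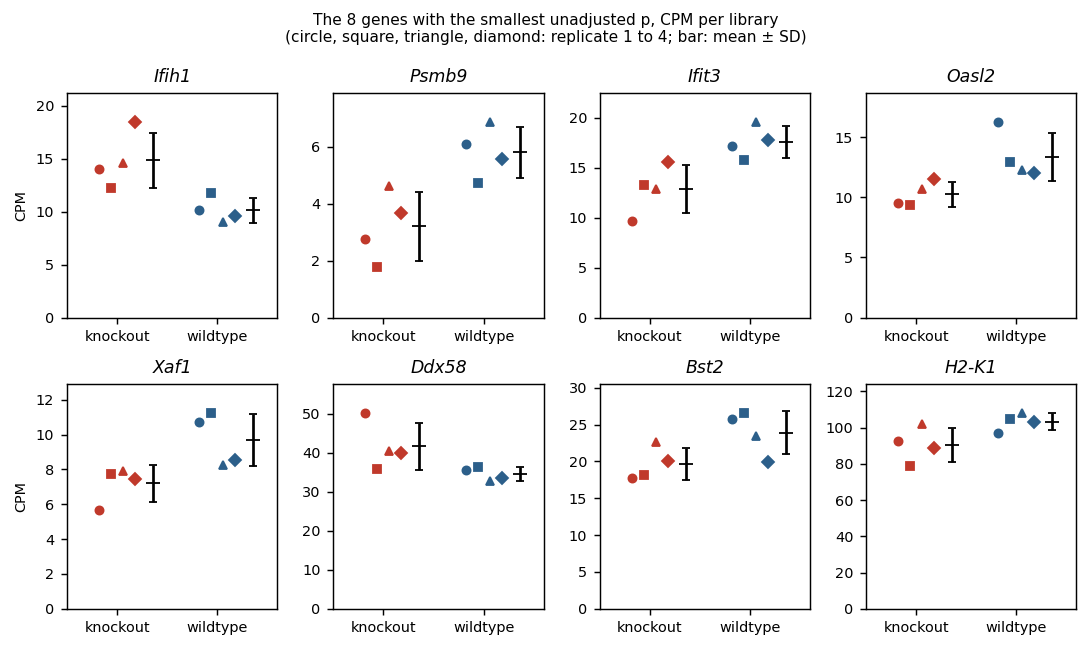
CPM in each library for the 8 genes with the smallest unadjusted p, knockout in red and wildtype in blue, with a symbol for each replicate number and the mean ± SD beside each group (n = 4). Ifih1 and Ddx58 are higher in knockout and the other 6 lower, and Ifih1, Psmb9, Ifit3, Oasl2 and Xaf1 show no overlap.

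Of the guanylate-binding proteins, large GTPases that attack the vacuoles of intracellular pathogens, the 3 among the 34 genes were lowest in knockout 1. Gbp7 had 8.24, 12.4, 11.0 and 11.2 CPM in knockout, against 11.6, 12.1, 11.7 and 11.8 CPM in wildtype. The log2 fold changes of these 3 genes were -0.14 ± 0.14 for Gbp7, -0.13 ± 0.20 for Gbp3 and -0.07 ± 0.17 for Gbp2. The chemokine gene Cxcl10, whose product attracts T cells, had 1.07, 2.06, 1.03 and 1.39 CPM in knockout, against 0.913, 2.0, 1.47 and 1.44 CPM in wildtype. Its counts, 15 to 37 per library, do not separate the groups.

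In class I presentation the largest difference was in an immunoproteasome subunit. Psmb9, which encodes the beta subunit LMP2, had 2.77, 1.78, 4.62 and 3.68 CPM in knockout, against 6.09, 4.74, 6.88 and 5.58 CPM in wildtype. The groups did not overlap, though knockout 3 came close to wildtype 2. The log2 fold change of -0.86 ± 0.27, or 1.82-fold lower, was the largest in size of the 33 genes, and it was not called (adjusted p = 0.578, Benjamini-Hochberg, from edgeR's quasi-likelihood test). Without knockout 1 and 2 it was -0.49. Within each group, Psmb9 was higher in knockout 3, knockout 4 and wildtype 3 than in the other libraries. The gene lies on chromosome 17 between H2-K1 and H2-D1. The H2 haplotypes of the mice are not given in the sources used here, and their part in the Psmb9 values was not tested. In TPM, Psmb9 stood at 4.07%, 3.12%, 5.56% and 5.29% of Psmb6, the constitutive subunit it replaces, in knockout 1 to 4, against 7.86%, 6.31%, 8.09% and 7.94% in wildtype 1 to 4. That ratio did not overlap between the groups either, but it rests on the same Psmb9 reads and is not a separate measure. Psmb8, set against Psmb5 in the same way, gave 9.17% ± 1.40 in knockout and 9.39% ± 0.59 in wildtype, and Psmb10 against Psmb7 gave 13.8% ± 0.47 and 14.5% ± 1.45 (SD, n = 4 each), with overlap in both. Tap1, a subunit of the peptide transporter, shares its start region with Psmb9 on chromosome 17, where Psmb9 runs from 34181987 to 34187764 on the minus strand and Tap1 from 34187553 to 34197225 on the plus strand (GRCm38). Its log2 fold change was -0.15 ± 0.13, at 13.4 ± 1.27 CPM in knockout kidneys, against 14.9 ± 2.13 CPM in wildtype kidneys.

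**Figure D4:**
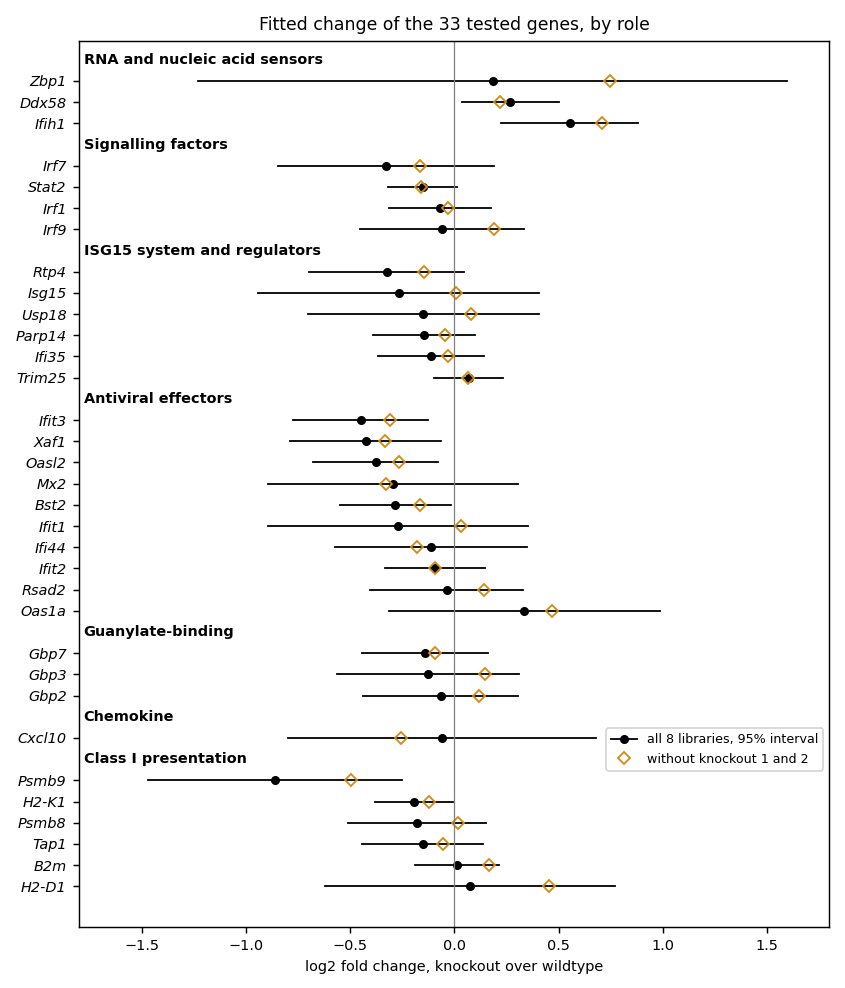
Fitted log2 fold change of knockout over wildtype for the 33 tested genes, grouped by role, with 95% intervals from all 8 libraries (black). Orange diamonds give the value without knockout 1 and 2, a setting chosen after seeing the data. Psmb9 is lowest at -0.86 and Ifih1 highest at 0.55, and without knockout 1 and 2 the genes divide into 18 negative and 15 positive.

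The class I heavy chain genes H2-K1 and H2-D1 differed in how the libraries were placed. H2-K1 had 92.3, 78.7, 102 and 88.6 CPM in knockout, against 96.9, 105, 108 and 103 CPM in wildtype, with a log2 fold change of -0.19 ± 0.08 (adjusted p = 0.794, Benjamini-Hochberg, from edgeR's quasi-likelihood test). Only knockout 3 reached the wildtype range. H2-D1, by contrast, had 97.6, 93.6, 175 and 183 CPM in knockout, against 108, 114, 194 and 105 CPM in wildtype. Knockout 3, knockout 4 and wildtype 3 stood far above the other 5 libraries, so the log2 fold change of 0.08 ± 0.30 averages over a gap within each group. The class I gene H2-T22, in the same region of chromosome 17 and not 1 of the 34, showed the mirror image. It had 33, 31.3, 18.1 and 20.4 CPM in knockout, against 36.7, 37.6, 19.9 and 34.6 CPM in wildtype, lowest in the same 3 libraries. H2-Q6 was also lowest in these 3, at 17.7, 21.1, 12.3 and 10.2 CPM in knockout and 19.2, 24.9, 16.3 and 24.1 CPM in wildtype. H2-T22 and H2-Q6 are named because of these values, not by the rule used for the other genes. The H2 haplotypes of the mice are not given in the sources used here, and class I genes are near copies of each other that differ between strains, among which shared reads were not examined. B2m, which lies on chromosome 2, had 151, 152, 195 and 186 CPM in knockout, against 174, 168, 168 and 169 CPM in wildtype. The wildtype libraries were nearly equal, knockout 1 and 2 lay below them and knockout 3 and 4 above, and the means hardly differed (log2 fold change 0.01 ± 0.09).

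**Figure D5:**
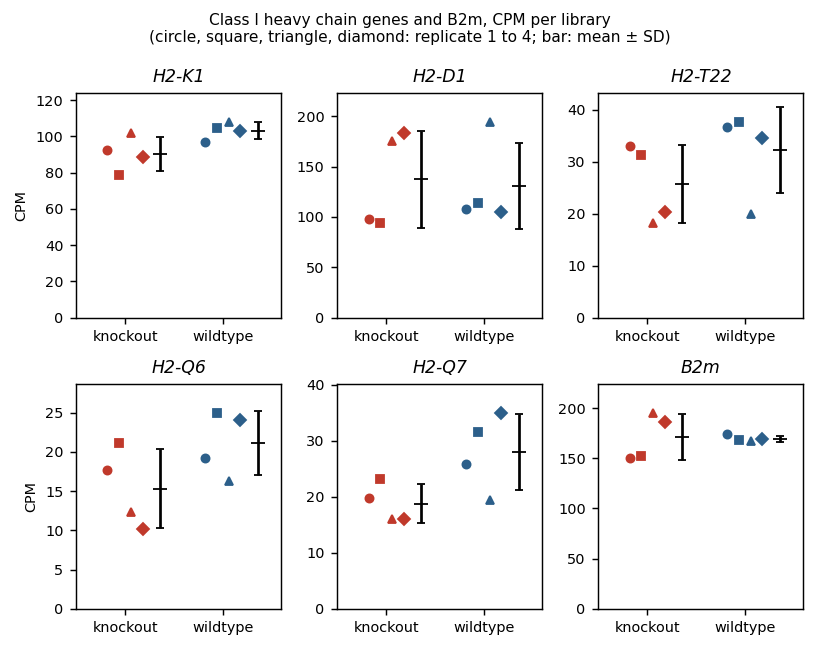
CPM in each library for class I heavy chain genes and B2m, knockout in red and wildtype in blue, with a symbol for each replicate number and the mean ± SD (n = 4). H2-D1 is high in knockout 3, knockout 4 and wildtype 3, the libraries in which H2-T22 and H2-Q6 are low.

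Other genes of the pathway were read from lists beside the 34. Of 101 tested, 0 passed in either direction, 3 were lower (2.97%, against 3.08% of all genes) and 2 higher (1.98%, against 3.11%) at an unadjusted p under 0.05, shares no larger than over all genes. Their median log2 fold change was -0.05, and 67 of 101 were negative (66.3%, against 49.7% of all genes). Among 39 tested further interferon targets the median was -0.09 and 29 were negative. Without knockout 1 and 2 the median was -0.02, with 20 negative and 19 positive. The smallest p of them belonged to Ifi203, a gene of the DNA-sensing PYHIN family, with 22.9, 27.5, 24.8 and 29.4 CPM in knockout, against 18.6, 13.3, 17.1 and 17.1 CPM in wildtype. Its groups did not overlap, and the log2 fold change of 0.66 ± 0.13 was not called (adjusted p = 0.144, Benjamini-Hochberg, from edgeR's quasi-likelihood test). Lgals9, which encodes galectin-9, was on the low side at 38.1 ± 3.16 CPM in knockout kidneys, against 44.5 ± 0.49 CPM in wildtype kidneys. The 10 receptor and JAK-STAT genes had a median of -0.04, the 12 tested sensors and adaptors one of 0.03 and the 10 genes of restraint one of 0.02. The other peptide loading genes had a median of -0.04, with Tap2 at 21.8 ± 4.68 CPM in knockout kidneys, against 29.7 ± 5.50 CPM in wildtype kidneys (log2 fold change -0.45 ± 0.18), and the 7 class II genes had a median of -0.10. Of the other class I genes, H2-Q7 had the smallest p, at 18.8 ± 3.48 CPM in knockout kidneys, against 27.9 ± 6.81 CPM in wildtype kidneys.

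Cell types that could carry these transcripts were compared by their markers. Summed over 11 macrophage genes, knockout libraries had 155 to 181 CPM and wildtype libraries 165 to 181 CPM, with a median log2 fold change of 0.00. The 7 dendritic cell genes summed to 41.6 to 43.5 CPM in knockout and 41.6 to 43.8 CPM in wildtype. Of 10 lymphocyte genes 4 did not pass the filter on low counts, and the sum was 10.4 to 15.0 CPM in knockout and 7.48 to 13.3 CPM in wildtype. The largest differences were in nephron markers. The 4 markers of the distal convoluted tubule summed to 385 to 455 CPM in knockout and 691 to 760 CPM in wildtype, with a median log2 fold change of -0.76, and 2 of them, Slc12a3 and Pvalb, were called lower (edgeR's quasi-likelihood test, Benjamini-Hochberg). The 4 podocyte markers summed to 679 to 858 CPM in knockout and 929 to 1098 CPM in wildtype, with a median of -0.48 and 0 called. Endothelial markers were also mostly on the negative side. Their median log2 fold change was -0.14, 9 of 10 were negative, 0 passed the threshold, and 9 of 10 had their lowest value in knockout 1 or 2. They summed to 1315 to 1473 CPM in knockout and 1436 to 1551 CPM in wildtype. Without knockout 1 and 2 their median was -0.09, and 9 of 10 were still negative. The part of the tubule, podocyte and endothelial markers in the values of the interferon genes was not tested.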

How the data were processed

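Per the labels, 4 knockout and 4 wildtype libraries of whole kidney were sequenced with a strand-specific kit. The submitters' processing notes name Salmon, DESeq2 1.14.1 and mm10. The authors deposited counts per gene as whole numbers, without gene names, and TPM per gene with identifiers and symbols. The 47729 count rows were joined by row order to the TPM rows, of which 2 with a repeated identifier were dropped. As a check, counts over TPM were constant between libraries for 13251 genes of 50 or more counts (median SD on the log2 scale 0.00064, against 0.281 when shifted by 1 row).

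Genes were filtered with filterByExpr (18548 kept), scaled with TMM and tested with edgeR 4.0.16 in R 4.3.3 (quasi-likelihood, robust, genotype alone, two-sided), with Benjamini-Hochberg adjustment over all tested genes and a threshold of 0.05. Standard errors were derived from the F statistic. Other normalizations, filters, DESeq2 1.42.0, limma 3.58.1 (voom, and log2 TPM with pseudocounts of 1 and 0.1), the replicate number as a block and leaving out libraries were alternatives. The fit was tested on simulated data. No 2 libraries agreed within sampling noise. The members and lists were chosen with earlier results of these data known. Values in every library are given for the 10 genes with the smallest p, the 3 with the highest TPM and the first of each role. Of 209 listed further symbols, 207 matched. The values of 1 further gene of the pathway are not reported here.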

Additional observations from a re-analysis of the deposited data

Results flagged for a closer look

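Over the 34 genes, 4 of 68 groups of libraries had 1 library standing apart. About 3.4 would by chance (1 in 20) if the groups were independent. All genes were read in the same libraries, so they are not, and the count is a rough guide. Wildtype 3 was far above the other wildtype libraries for H2-D1, at 194 CPM, against 114 CPM in the next. Knockout 3 and 4 were also high for H2-D1, at 175 and 183 CPM. Knockout 1 was far below for Rsad2, at 44.8 CPM, against 75.8 CPM. Wildtype 1 was above for Gbp2, at 7.18 CPM, against 5.95 CPM, and wildtype 4 below for Rtp4, at 6.25 CPM, against 7.02 CPM.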

How the results depend on the processing

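Over 22 other settings 0 of the genes tested were called, in either direction, with 33 or 34 of the genes tested in each. The median log2 fold change of the 33 genes stayed negative, at -0.18 to -0.095 when each library was left out in turn. It was -0.29 with limma on log2(TPM + 0.1), a scale on which the median of all genes was -0.14, and the difference from that median was -0.14 there and -0.14 with edgeR. With log2(TPM + 1) the 2 medians were -0.19 and -0.11. Without the 2 libraries with over 1% of counts on the ribosomal RNA row, a setting chosen after seeing the data, it was -0.03. The number of calls over all genes was 15, and 27 with no filter, 154 with DESeq2, 5 with limma on either TPM scale, 23 at a threshold of 0.1, 3 without the 2 libraries with Xist reads, 9 without the rRNA-rich 2, and 10 to 52 when 1 library was left out (29 without knockout 3, 52 without wildtype 4). The cause was not tested. With the replicate number as a block edgeR called 10 genes and 0 of the 33 tested, at a median of -0.15, and 3 of the 33 were lower at an unadjusted p under 0.05, against 6 without the block. Same-numbered libraries did not deviate together (correlations -0.081 to 0.036).

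Some log2 fold changes, which lay between -0.27 (Ifit1) and 0.18 (Zbp1) in the main fit, changed sign in some settings, without a call. With total count scaling B2m was -0.0034. On the log2(TPM + 1) and log2(TPM + 0.1) scales Trim25 was -0.065 and -0.077, H2-D1 -0.087 and -0.090, and B2m -0.14 and -0.14. Zbp1 was -0.20 with limma-voom and -0.074 on log2(TPM + 0.1). Without the libraries with Xist reads Irf1 was 0.052 and Irf9 0.012. Without the rRNA-rich libraries Ifit1 was 0.034, Rsad2 0.14, Isg15 0.0094, Usp18 0.081, Psmb8 0.015, Irf9 0.19, Gbp3 0.15 and Gbp2 0.12. Leaving out 1 library in turn gave -0.12 to 0.12 for Rsad2, -0.31 to 0.12 for Cxcl10, -0.16 to 0.079 for Irf9, -0.28 to 0.020 for Gbp3, -0.17 to 0.019 for Gbp2, -0.29 to 0.0088 for Ifi44, -0.095 to 0.33 for H2-D1, -0.057 to 0.066 for B2m, -0.34 to 0.56 for Zbp1 and -0.14 to 0.0095 for Irf1. Genes under 1 TPM, such as Zbp1, are limited by their counts.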
